A study of Mus musculus with 36 samples.

Results

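A set of 10 extracellular matrix genes, the collagen genes Col1a1, Col1a2, Col3a1, Col4a1, Col4a2, Col5a1, Col5a2 and Col6a3 together with Sparc and Thbs1, was followed across the Ago2 binding sites of mouse colonic tumours. All Ago2 peaks that the deposited annotation assigned to one of these 10 genes were taken, which gave 27 of 7730 peaks, and all 10 of the 3933 genes with an annotated peak were represented. The study compared tumours with and without oncogenic K-Ras by HEAP, a CLIP-seq variant in which a Halo-tagged Ago2 is pulled down with the miRNAs and mRNA fragments crosslinked to it. G12D tumours came from mice carrying Halo-Ago2/+ with Villin-CreER/+, Apc(fl/fl) and K-Ras-G12D/+ (6 tumours), and WT tumours from mice with the same alleles but wild-type K-ras (6 tumours). All mice were C57BL/6 and were given 4-hydroxytamoxifen by enema (5 mg/ml) at 8 to 12 weeks of age, and tumour lawns were taken when the animals became moribund.

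Both genotypes therefore had Apc deleted by a Cre that the Villin promoter directs to the gut epithelium, while the tissue scraped from the colon holds other cells as well. The labels do not say whether Halo-Ago2 was limited to the cells with Cre. In bulk tissue, fewer cells of a type and less RNA per cell cannot be told apart, nor can more Ago2 on an mRNA and more of that mRNA, since the input libraries were not used here. For each genotype and replicate number there was a miRNA, an mRNA and an input library (36 samples). Each genotype had 3 numbers in each of 2 batches named in the labels. A number is called a tumour here, although the labels do not tie it to a mouse.

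Fibrillar collagens of types I, III and V form the tensile fibres of connective tissue and are made mainly by fibroblasts. Type IV collagen is the network of basement membranes, type VI collagen forms beaded microfibrils beside cells, and the secreted proteins SPARC and thrombospondin-1 bind to matrix and regulate how cells attach to it. The miR-29 family is known for repressing collagen and other matrix mRNAs, and lower levels of it accompany fibrosis in several organs, while let-7 is a large family that restrains growth and is abundant in differentiated epithelium.

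The mature miRNAs of both families are shown because their seeds decide which sites in the collagen peaks can be read as theirs. Capitals mark the seed, bases 2 to 8, and the sequences are those of RefSeq (GRCm38.p6).
miR-29a-3p: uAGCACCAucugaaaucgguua
miR-29b-3p: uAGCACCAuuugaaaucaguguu
miR-29c-3p: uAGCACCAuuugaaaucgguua
let-7a-5p: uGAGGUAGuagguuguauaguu
let-7b-5p: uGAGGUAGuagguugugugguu
let-7i-5p: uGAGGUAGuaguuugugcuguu
The 3 miR-29 members share one seed, and so do the let-7 members and miR-98-5p. An 8mer site for miR-29 in DNA letters is TGGTGCTA and one for let-7 is CTACCTCA. The shorter types drop one end: 7mer-m8 lacks the last A and 7mer-A1 lacks the first letter. Site calls in the peaks are those of the authors' deposited annotation.

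The collagen and matrix peaks were rich in miR-29 sites. A 7mer or 8mer site for miR-29 lay in 12 of the 27 peaks (44.4%) and in 9 of the 10 genes, against 463 of 7585 annotated peaks (6.1%). The exception was Thbs1. The 12 peaks held 15 such sites, of which 6 were 8mers, 4 were 7mer-m8 and 5 were 7mer-A1. Within 3' UTRs, where most sites of this kind act, 9 of 18 collagen and matrix peaks had one (50%), against 250 of 3940 (6.35%) of all 3' UTR peaks. Overlapping or neighbouring peaks of one gene share its transcript, so the 27 peaks are not independent draws and these shares are given as descriptions. The 10 genes were also chosen with earlier results of these data known. Peaks of other collagens and of other matrix proteins held a miR-29 site in 0 of 1 and 1 of 14 cases.

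Sites for let-7 were less concentrated. A 7mer or 8mer for let-7 and miR-98 lay in 4 of 27 peaks (14.8%), against 779 of 7585 (10.3%). They were a 7mer-m8 in Col1a1 peak 3, an 8mer in Col3a1 peak 3, a 7mer-A1 in Col4a2 peak 2 and a 7mer-A1 in Thbs1 peak 2, where peaks are numbered from the 5' to the 3' end of each gene. Col4a2 peak 2 (chr8:11448512-11448570, plus strand, mm10) was the peak with a 7mer or longer site for both families. The third family by count was miR-30a-3p/30d-3p/30e-3p, with a 7mer in 3 of 27 peaks (11.1%) against 1.32% of all annotated peaks.

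**Figure D1:**
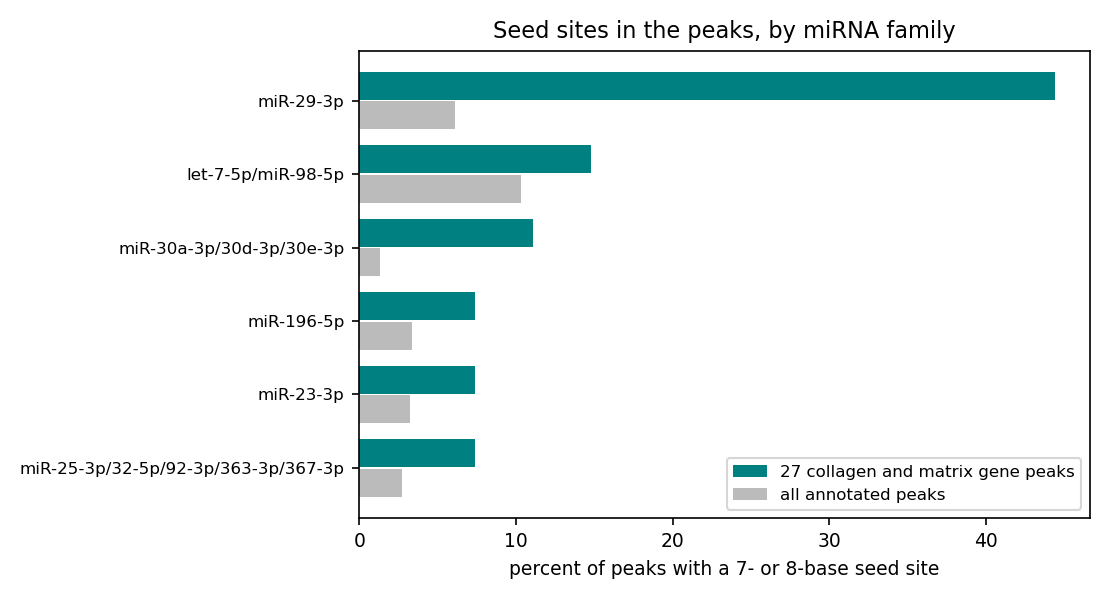
Percent of peaks holding a 7mer or 8mer seed site, for the 6 miRNA families with such sites in at least 2 of the 27 collagen and matrix gene peaks; dark bars are these 27 peaks and grey bars all 7585 annotated peaks. The miR-29 bars stand at 44.4% and 6.1%, and the let-7 bars at 14.8% and 10.3%.

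Most of the peaks lay where miRNA sites are usually found. Of the 27 peaks, 18 were annotated to a 3' UTR (66.7%, against 51.9% of all annotated peaks), 8 to an exon (29.6%, against 32.2%), 1 to a 5' UTR (3.7%, against 3.74%) and 0 to an intron (12.1% of all). The 5' UTR peak belonged to Col5a2 (chr1:45502949-45503051, minus strand) and carried 3 miR-29 sites, the most of any of the 27. The peaks were 49 to 103 bases wide. One peak, Col1a2 peak 1, was also annotated to RP23-56M2.7, so its reads cannot be assigned to either transcript with certainty.

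Signal is given in RPM, the reads of a peak per 1000000 reads on all peaks of the same library, so that a value is relative to all Ago2 peaks of its tumour. The 6 G12D mRNA libraries held 125384 to 974013 peak reads and the 6 WT libraries 30607 to 770237. WT replicates 5 and 6 were the shallowest, with 30607 and 57037 reads, so that 1 read there equals 32.7 and 17.5 RPM. Of the 27 peaks, 20 had no read in WT replicate 5 and 10 had none in WT replicate 6, against at most 2 in any other library. For WT replicates 5 and 6 a count of 0 allows up to 98.0 and 52.6 RPM (3 reads), and the plot of relative fold changes shows every tested peak without them too.

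The 27 peaks together took a small share of Ago2-bound fragments. In G12D replicates 1 to 6 they summed to 4270, 2487, 1810, 1380, 2770 and 2503 RPM, against 1322, 2060, 1573, 3387, 294 and 982 RPM in WT replicates 1 to 6. The groups overlapped: WT replicate 4 was above 5 of the 6 G12D libraries, and WT replicate 5, with 9 reads in all, was the lowest (exact 95% binomial interval 134 to 558 RPM, counting error only). The mean was 2537 ± 993 in G12D and 1603 ± 1056 in WT tumours (SD, n = 6 each), and 2086 ± 920 in WT without replicates 5 and 6 (n = 4). Of the reads on the 27 peaks pooled over all 12 libraries, peaks with a miR-29 site held 54.0% and 3' UTR peaks 72.5%. The deep libraries weigh most in these pooled shares.

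**Figure D2:**
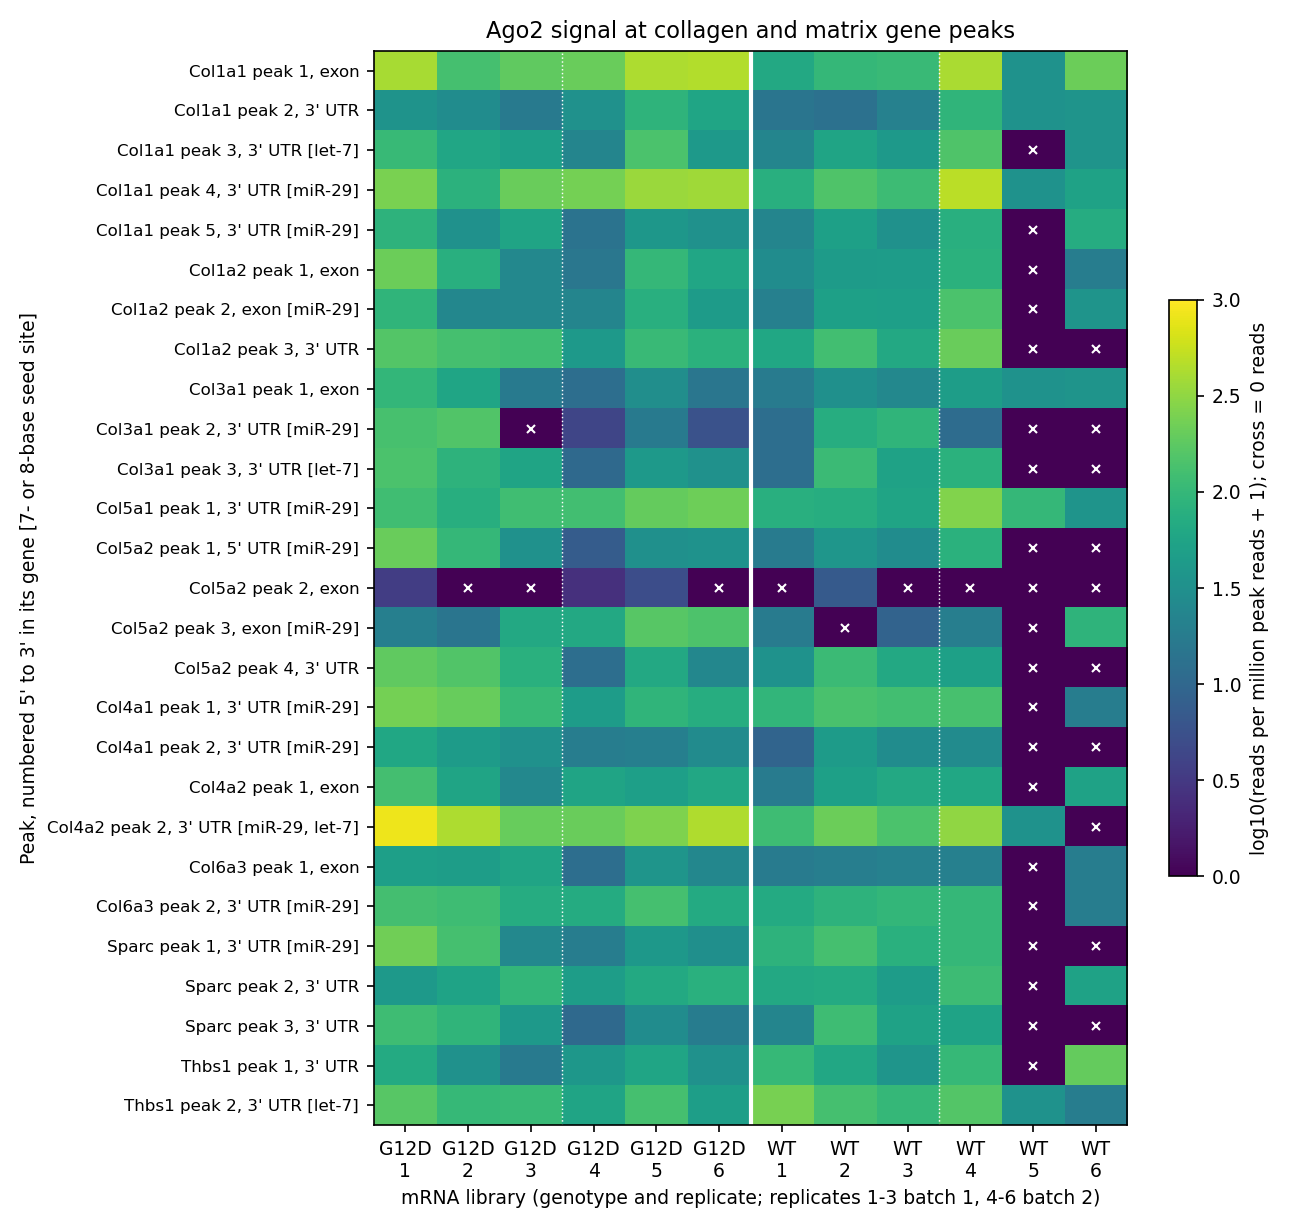
Ago2 signal at each of the 27 peaks (rows, grouped by gene, with region and seed-site family) in the 6 G12D and 6 WT mRNA libraries (columns), coloured by log10(RPM + 1), with crosses for 0 reads. The 2 shallow WT libraries hold most of the crosses, and Col4a2 peak 2 holds the highest single value, 831 RPM in G12D replicate 1.

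To compare genotypes, each peak's deposited value was log2-transformed after adding 1 and tested with limma, with batch in the model, over all 7527 peaks with a mean of at least 5. Of the 27 peaks, 26 passed that filter, and Col5a2 peak 2, with 8 reads over all libraries, did not. None of the 26 reached an adjusted p under 0.05, nor did any of the 7527 (0%). At an unadjusted p under 0.05, 14 of 26 were higher in G12D against 35.9% of all tested peaks, and 0 were lower against 0.173%. DESeq2 on the recovered reads called 2 of 26 higher, against 10.1% of all, and edgeR called 0, against 0.0133%. With a pseudocount of 5 in place of 1, limma called 2 of 26, against 6.72%.

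That lean towards G12D was general. The median log2 fold change of all tested peaks was 1.33 with all libraries and 0.38 without WT replicates 5 and 6, and it depended on scaling, at 0.45 on the RPM scale and 0.12 in edgeR with TMM factors. Fold changes below are therefore also given relative to that median. The 26 peaks had a median of 1.65, or 0.32 above the median of all peaks, and 16 of 26 lay above it. With 1 library left out this relative median ran from 0.08 (without WT replicate 1) to 0.51 (without G12D replicate 4), and it was 0.11 without G12D replicate 1. Without WT replicates 5 and 6 the relative median was 0.16 and 18 of 26 lay above, and 4 had an unadjusted p under 0.05 against 14.3% of all. In batch 1 alone the relative median was 0.60, and in batch 2 alone it was -0.15. Without WT replicate 4, the WT tumour with the highest collagen signal, 19 of 26 peaks were called higher, beside 45.1% of all tested peaks.

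The basement membrane gene Col4a2 held the peak with the largest log2 fold change among the 26. Its 3' UTR peak 2, with sites for miR-29 (7mer-m8) and let-7 (7mer-A1), had 831, 423, 199, 205, 262 and 444 RPM in G12D replicates 1 to 6, against 116, 208, 140, 317, 32.7 and 0 RPM in WT replicates 1 to 6. All 6 G12D tumours were above the WT median, and 3 were above every WT tumour, but the groups overlapped at WT replicates 2 and 4. This gave a log2 fold change of 2.96 (SE 0.87; limma adjusted p = 0.108), which is 1.63 relative to all peaks and 0.96 relative without WT replicates 5 and 6. The log2 fold change of peak 2 was 1.89 in batch 1 and 4.03 in batch 2, or 1.45 and 1.79 relative to all peaks. In batch 2 limma gave an adjusted p of 0.041, beside 3.11% of all peaks called higher. The WT tumours of batch 2 include replicates 5 and 6, with 1 and 0 reads at this peak. At the exonic peak 1 (chr8:11446164-11446225), the relative log2 fold change was 0.27.

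Col4a1 encodes the chain that pairs with that of Col4a2, and both of its peaks were in the 3' UTR with a miR-29 site. The 8mer peak (chr8:11199727-11199781, minus strand) had 236, 201, 104, 44.6, 90.3 and 72.9 RPM in G12D tumours, against 94.0, 135, 124, 134, 0 and 17.5 RPM in WT tumours. The G12D values were highest in replicates 1 and 2, and the other G12D tumours lay within the range of WT replicates 1 to 4 or below it. Between genotypes the log2 fold change was 1.79 (SE 0.79; limma adjusted p = 0.124), or 0.46 relative to all peaks and 0.07 relative without WT replicates 5 and 6.

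Col5a2, the second chain of type V collagen, which sets the width of collagen fibrils, had 4 peaks that did not move together. The exonic peak 3 with a miR-29 7mer-A1 (chr1:45391087-45391135, minus strand) had 18.5, 13.8, 63.8, 63.7, 165 and 146 RPM in G12D replicates 1 to 6, against 16.6, 0, 7.99, 18.2, 0 and 87.7 RPM in WT replicates 1 to 6. In all, 5 G12D tumours were above WT replicates 1 to 4, while WT replicate 6, with 5 reads, was above the lowest 4 G12D tumours. The log2 fold change was 2.85 (SE 0.75; limma adjusted p = 0.108), or 1.52 relative to all peaks and 1.96 relative without WT replicates 5 and 6. DESeq2 on the recovered reads called it (log2 fold change 2.70, adjusted p = 0.00143), as did the authors' deposited table (2.70, adjusted p = 0.00142). Both rest on the same reads, so they are not independent. edgeR did not call it (adjusted p = 0.459). Its relative log2 fold change was positive in batch 1 alone (1.63) and in batch 2 alone (1.39).

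The 3' UTR peak 4 of Col5a2 (chr1:45375958-45376018) ran the other way between batches. It had 185, 154 and 79.8 RPM in the G12D tumours of batch 1 and 11.1, 63.7 and 23.8 in those of batch 2, against 33.2, 110 and 63.9 in WT tumours of batch 1 and 49.3, 0 and 0 in those of batch 2. Of the reads on peaks 3 and 4 together, peak 3 took 9.09%, 8.24%, 44.4%, 85.1%, 72.2% and 86.0% in G12D replicates 1 to 6, against 33.3%, 0%, 11.1% and 26.9% in WT replicates 1 to 4. In WT replicate 5 neither peak had a read, and in WT replicate 6 all 5 reads were on peak 3. The G12D tumours of batch 2 thus stood above all others with more than 5 reads in this share. The 5' UTR peak 1, with its 3 miR-29 sites, was highest in G12D replicates 1 and 2, with 204 and 98.8 RPM, and WT replicate 4 had 81.8 RPM. Its relative log2 fold change was 0.55.

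Col5a1, the partner chain of Col5a2, had a single 3' UTR peak with a miR-29 8mer (chr2:28038336-28038397, plus strand). It had 118, 75.1, 120, 124, 194 and 217 RPM in G12D tumours, against 77.4, 73.6, 55.9, 271, 98.0 and 35.1 RPM in WT tumours. WT replicate 4 was above all 6 G12D tumours, and 5 G12D tumours were above all other WT tumours. Its log2 fold change was 1.53 (SE 0.69; limma adjusted p = 0.125), or 0.20 relative to all peaks.

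The type I collagen gene Col1a1 had 5 peaks, 1 in an exon and 4 in the 3' UTR. The exonic peak 1 (chr11:94942015-94942071, plus strand), without a site for miR-29 or let-7, had 400, 130, 183, 204, 422 and 445 RPM in G12D tumours, against 63.6, 98.1, 108, 421, 32.7 and 210 RPM in WT tumours. All G12D tumours were above WT replicates 1, 2, 3 and 5, while WT replicate 4 reached the level of the highest G12D tumours. The log2 fold change was 2.09 (SE 0.72; limma adjusted p = 0.108), or 0.76 relative to all peaks, with and without WT replicates 5 and 6.

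The strongest Col1a1 peak of the 3' UTR, peak 4 (chr11:94952492-94952553), carried a miR-29 8mer and a 7mer-A1. It had 248, 83.0, 207, 232, 352 and 371 RPM in G12D tumours, against 77.4, 147, 112, 486, 32.7 and 52.6 RPM in WT tumours. The highest tumour of the 12 was WT replicate 4. Between genotypes peak 4 had a log2 fold change of 1.97 (SE 0.77; limma adjusted p = 0.111), or 0.64 relative to all peaks and 0.21 relative without WT replicates 5 and 6. The remaining 3' UTR peaks, 2, 3 (let-7 7mer-m8) and 5 (miR-29 7mer-A1), had relative log2 fold changes of -0.13, 0.24 and -0.32.

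Col1a2, which encodes the other type I chain, had relative log2 fold changes of 0.48, -0.26 and 0.80 at its 3 peaks. The 3' UTR peak 3 (chr6:4540809-4540868, plus strand) had 158, 128, 120, 39.8, 107 and 82.4 RPM in G12D tumours, against 60.8, 123, 63.9, 206, 0 and 0 RPM in WT tumours. Its relative value was 0.03 without WT replicates 5 and 6, which both held 0 reads there. The miR-29 site of Col1a2 lay in the exonic peak 2 (a 7mer-m8), whose log2 fold change was 1.07 with all tumours and -0.13 without WT replicates 5 and 6.

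Col3a1, the fibrillar collagen of soft tissues, had its high values at the miR-29 site within one batch. Peak 2 in the 3' UTR, with a miR-29 8mer (chr1:45348959-45349009, plus strand), had 133, 154, 0, 3.18, 16.4 and 4.75 RPM in G12D tumours, against 11.1, 73.6, 91.8, 10.4, 0 and 0 RPM in WT tumours. High values occurred in G12D replicates 1 and 2 and in WT replicates 2 and 3, all of batch 1. The log2 fold change between genotypes was 0.77 (SE 0.93; limma adjusted p = 0.473), or -0.56 relative to all peaks. The exonic peak 1 and the 3' UTR peak 3, which holds a let-7 8mer, had relative values of -0.61 and 0.37, and peak 1 stood at 0.84 in batch 1 and -2.08 in batch 2. WT replicates 5 and 6, both of batch 2, held 1 and 2 reads at peak 1. Without them the relative values of peaks 1, 2 and 3 were 0.15, -0.31 and 0.12.

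Col6a3, the long chain of type VI collagen, had an exonic peak 1 (chr1:90811697-90811747, minus strand) with no site for either family and a 3' UTR peak 2 with a miR-29 8mer. Peak 1 had 48.1, 45.4, 55.8, 11.1, 35.9 and 23.8 RPM in G12D tumours, against 16.6, 18.4, 19.97, 19.5, 0 and 17.5 RPM in WT tumours. In all, 5 G12D tumours were above every WT tumour, and G12D replicate 4, with 7 reads, was below 5 of the WT tumours. Peak 1 had a log2 fold change of 1.80 (SE 0.68; limma adjusted p = 0.109), or 0.47 relative to all peaks and 0.90 relative without WT replicates 5 and 6. DESeq2 on the recovered reads called it (1.61, adjusted p = 0.0299), and the authors' deposited table, from the same reads, gave 1.61 (adjusted p = 0.0298). edgeR did not call it (adjusted p = 0.630). These 2 peaks, of Col5a2 and Col6a3, were the only ones of the 27 past 0.05 in the authors' deposited table, which called 782 of 7613 peaks (10.3%).

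Sparc, whose protein binds collagen, lay at the middle of all peaks with all 12 libraries and below it without WT replicates 5 and 6. Its 3 peaks were all in the 3' UTR and had relative log2 fold changes of -0.09, -0.02 and -0.003. Without WT replicates 5 and 6 these were -0.61, -0.23 and -0.18. Peak 1, with a miR-29 7mer-A1 (chr11:55395439-55395513, minus strand), had 225, 128, 23.9, 17.5, 39.0 and 30.1 RPM in G12D tumours, against 85.7, 129, 79.9, 98.7, 0 and 0 RPM in WT tumours. G12D replicates 1 and 2 were high and the other 4 G12D tumours lay below all of WT replicates 1 to 4, so the log2 fold change of 1.23 (SE 0.85; limma adjusted p = 0.238) became -0.23 without WT replicates 5 and 6.

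Thbs1, which encodes thrombospondin-1, an inhibitor of blood vessel growth, had the lowest relative values of the 10 genes. Peak 1 in its 3' UTR (chr2:118126045-118126102, plus strand) had 67.9, 31.6, 16.0, 38.2, 56.5 and 31.7 RPM in G12D tumours, against 102, 61.3, 35.9, 101, 0 and 193 RPM in WT tumours. All 6 G12D tumours were below the WT median, although the groups overlapped. The log2 fold change of 0.33 (SE 0.80; limma adjusted p = 0.719) was -1.0 relative to all peaks, and the relative value lay between -1.16 and -0.83 in edgeR, DESeq2, on the RPM scale, without WT replicates 5 and 6, and in batch 1 alone, with -1.20 in batch 2. Single WT libraries moved it further, to -1.41 without WT replicate 5 and -0.55 without WT replicate 6. Peak 2, with a let-7 7mer-A1, had a relative value of -0.36.

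**Figure D3:**
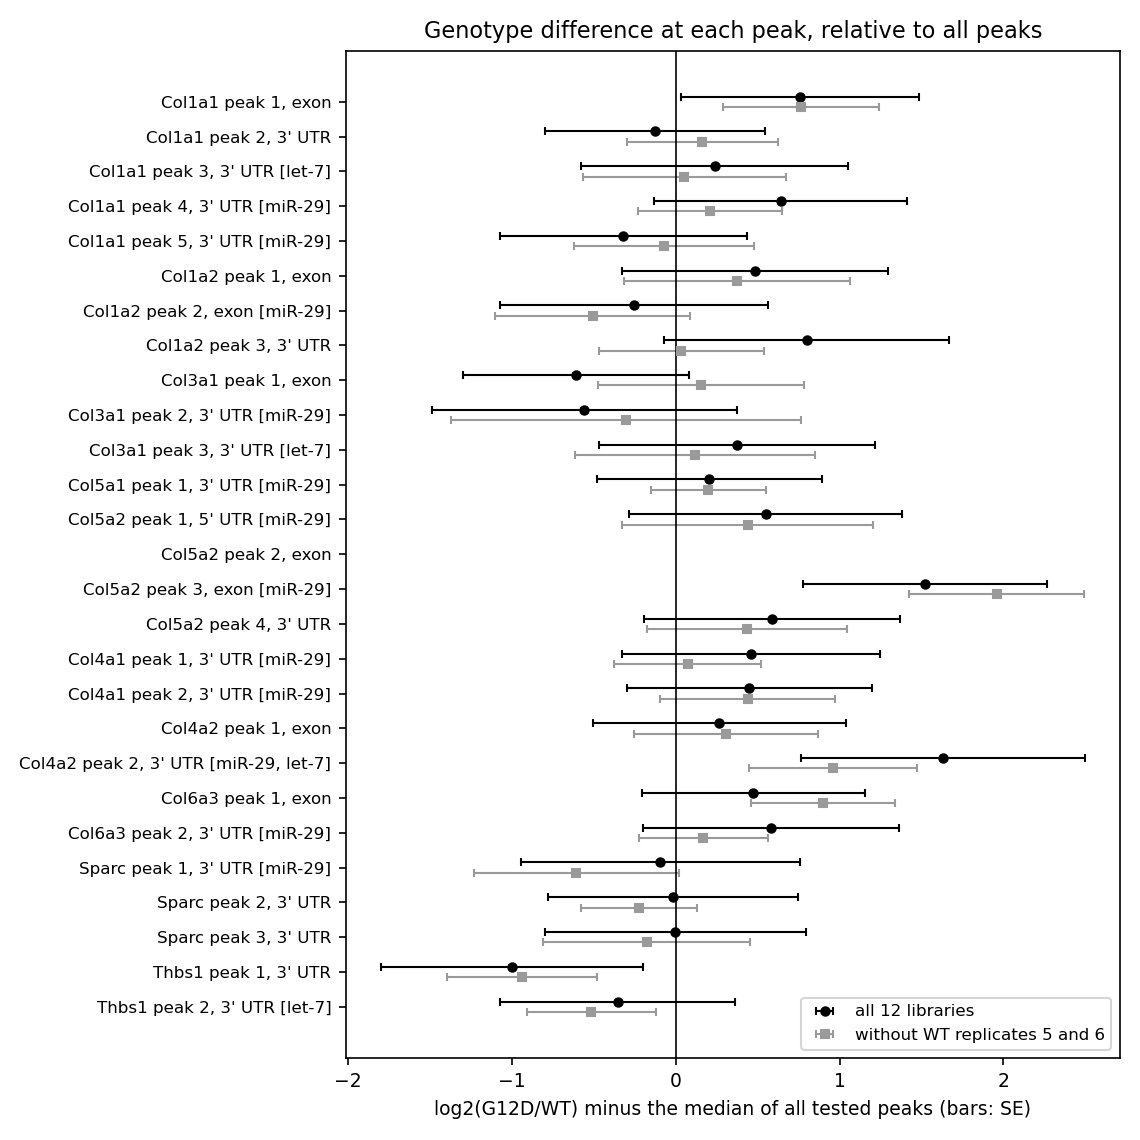
Log2 fold change of G12D over WT at each peak minus the median of all tested peaks (horizontal axis; bars are the SE of the fold change), with all 12 libraries (black circles) and without WT replicates 5 and 6 (grey squares). Col5a2 peak 3 and Col4a2 peak 2 lie farthest right at 1.52 and 1.63, and Thbs1 peak 1 farthest left at -1.0; Col5a2 peak 2 was not tested.

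Summed over the peaks of each gene, the order was led by Col5a2 and Col4a2. Col5a2 had a mean of 234 ± 110 RPM in G12D and 92.7 ± 56.98 in WT tumours, and Col4a2 had 456 ± 271 in G12D and 176 ± 131 in WT tumours (SD, n = 6 each). Their log2 fold changes were 2.5 (SE 0.80) and 2.46 (SE 0.75), both with a limma adjusted p of 0.0974, and relative to all genes 1.13 and 1.09. Without WT replicates 5 and 6 the relative values were 0.94 and 0.79. DESeq2 called both (adjusted p = 0.0220 for Col5a2 and 0.0373 for Col4a2), beside 15.4% of all 3897 genes called higher, as did limma with a pseudocount of 5 (9.6% of all), while edgeR called neither (0.0513%). Without WT replicate 4, limma called 8 of the 10, beside 56.2% of all genes.

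The other 8 genes had relative values of 0.68 for Col6a3, 0.66 for Col1a2, 0.60 for Col4a1, 0.52 for Col1a1, 0.24 for Sparc, 0.16 for Col5a1, -0.23 for Col3a1 and -0.78 for Thbs1. Without WT replicates 5 and 6 they were 0.33 for Col6a3, 0.012 for Col1a2, 0.09 for Col4a1, 0.37 for Col1a1, -0.28 for Sparc, 0.13 for Col5a1, 0.013 for Col3a1 and -0.69 for Thbs1, so that most moved towards 0 and those of Sparc and Col3a1 turned sign. Over all 12 tumours Thbs1 was the gene with the higher mean in WT tumours, at 140 ± 58.0 RPM in G12D and 195 ± 106 in WT tumours. With WT replicates 5 and 6 left out, the mean of Sparc was higher in WT tumours as well, at 191 ± 114 RPM in G12D (n = 6) and 232 ± 69.8 in WT tumours (n = 4). No gene sum passed limma's threshold, for these 10 or for the other genes tested (0%). At an unadjusted p under 0.05, 7 of the 10 were higher, against 42.7% of all genes, and 8 of the 10 lay above the median of all genes. Neighbours in this order differed by less than their standard errors, which ran from 0.66 to 0.90.

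**Figure D4:**
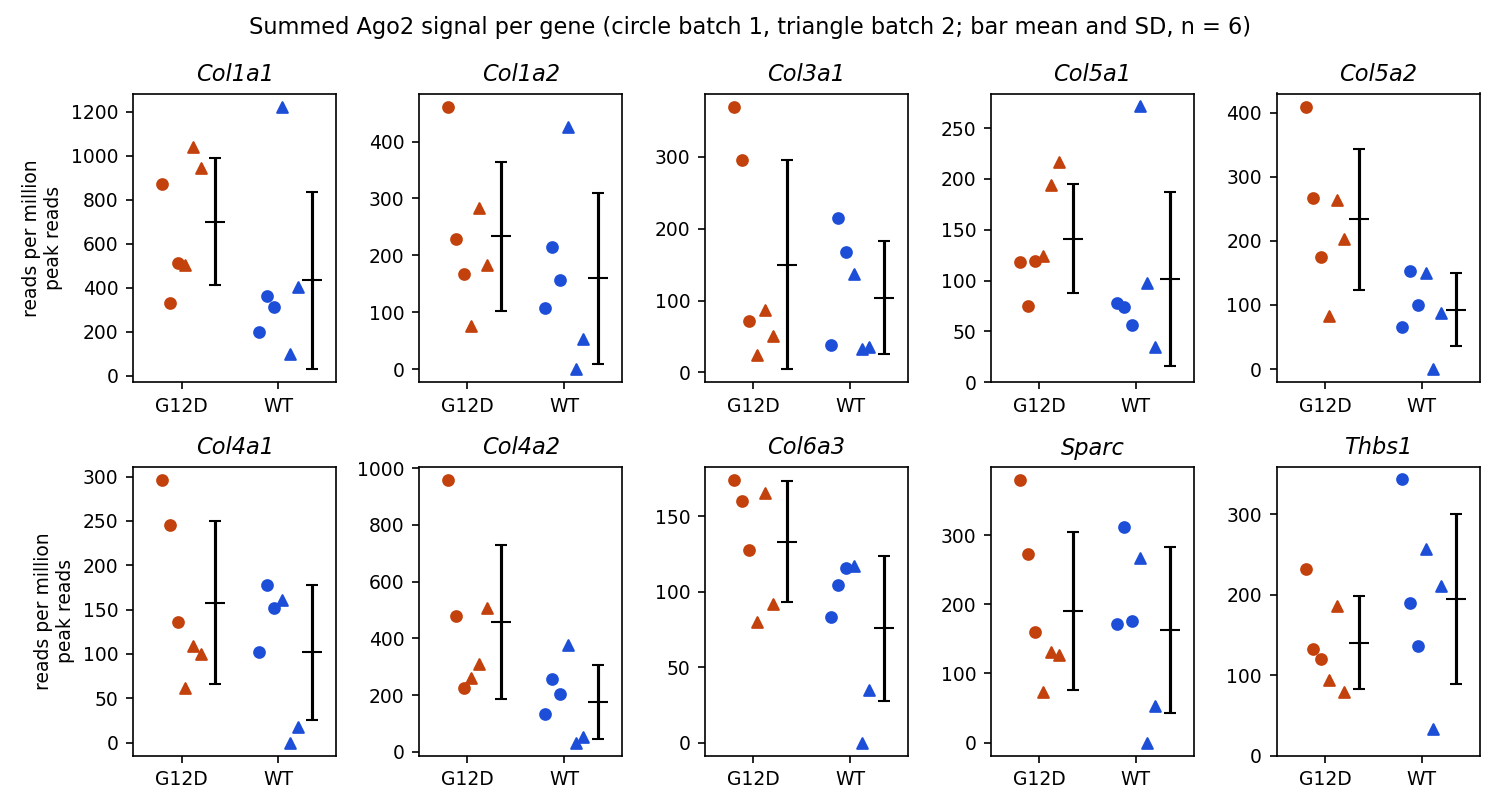
Summed Ago2 signal per gene in RPM (vertical axis) in G12D tumours (left, orange) and WT tumours (right, blue), with circles for batch 1, triangles for batch 2 and bars for the mean and SD of 6 tumours. WT replicate 4 is the highest WT triangle in every panel (1224 RPM in Col1a1), the other WT triangles being the shallow replicates 5 and 6. Col3a1 and Col4a1 are highest in the G12D circles.

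Several collagen peaks had their highest values in tumours of batch 1. By the shares below, a batch difference was no more frequent in the 26 peaks than in all tested peaks. In a comparison of batch 2 with batch 1 from the same limma fit, chosen after the values were seen, 0 of 26 peaks passed an adjusted p of 0.05, against 678 of 7527 (9.01%). At an unadjusted p under 0.05, 4 peaks were lower in batch 2 (16.8% of all peaks were), namely Col3a1 peak 2, Col5a2 peak 4 and Sparc peaks 1 and 3, with log2 differences of -2.30, -2.17, -2.0 and -1.93, beside a median of -0.29 over all peaks. One peak, Col5a2 peak 3, was higher in batch 2, by 1.79 (8.41% of all peaks were higher). The labels give the batch without saying what it was.

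No peak of the 26 had all G12D tumours above all WT tumours, a pattern that 0.571% of tested peaks showed, and none did without WT replicates 5 and 6 (0.81%). In the authors' peak lists, called once per genotype, 23 of the 27 peaks were in the G12D list alone and 0 in the WT list alone, against 5540 and 161 of the 7730 merged peaks. The 4 in both lists (14.8%, against 26.2% of all merged peaks) were Col4a2 peak 2, the Col5a1 peak and both Thbs1 peaks. The lists have no replicates, and the summed depth of the WT libraries was lower.

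No miR-29 member on Ago2 passed the test between genotypes. The most abundant member, miR-29a-3p, had 809, 847, 697, 734, 813 and 929 normalised counts in G12D tumours, against 917, 976, 854, 1079, 931 and 1022 in WT tumours. Of the 6 G12D tumours, 5 were below every WT tumour, and G12D replicate 6 was within the WT range. The log2 fold change was -0.26 (SE 0.10; limma adjusted p = 0.175, unadjusted p = 0.0210) and stood at -0.25 in the authors' deposited table (adjusted p = 0.0799). For miR-29b-3p and miR-29c-3p it was 0.07 and -0.21. Summed, the 3 members had 1319 ± 144 in G12D and 1494 ± 126 in WT tumours (SD, n = 6 each).

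The let-7 family was more abundant than miR-29 on Ago2. Its summed level was 16466 ± 1763 normalised counts in G12D and 16382 ± 1842 in WT tumours. The leading members were let-7i-5p, with 5502 ± 554 in G12D and 5630 ± 504 in WT tumours, and let-7b-5p, with 4460 ± 452 in G12D and 4632 ± 454 in WT tumours. Over the tested members of let-7 and miR-98-5p, log2 fold changes ran from -0.05 (let-7b-5p) to 0.62 (let-7a-5p), and the limma adjusted p from 0.318 to 0.914. WT replicate 5 held 231 counts of let-7a-5p, against 1232 to 1852 in the other WT tumours. None of the 12 tested miRNAs of the 2 families was called, against 11 of 284 miRNAs (3.87%).

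**Figure D5:**
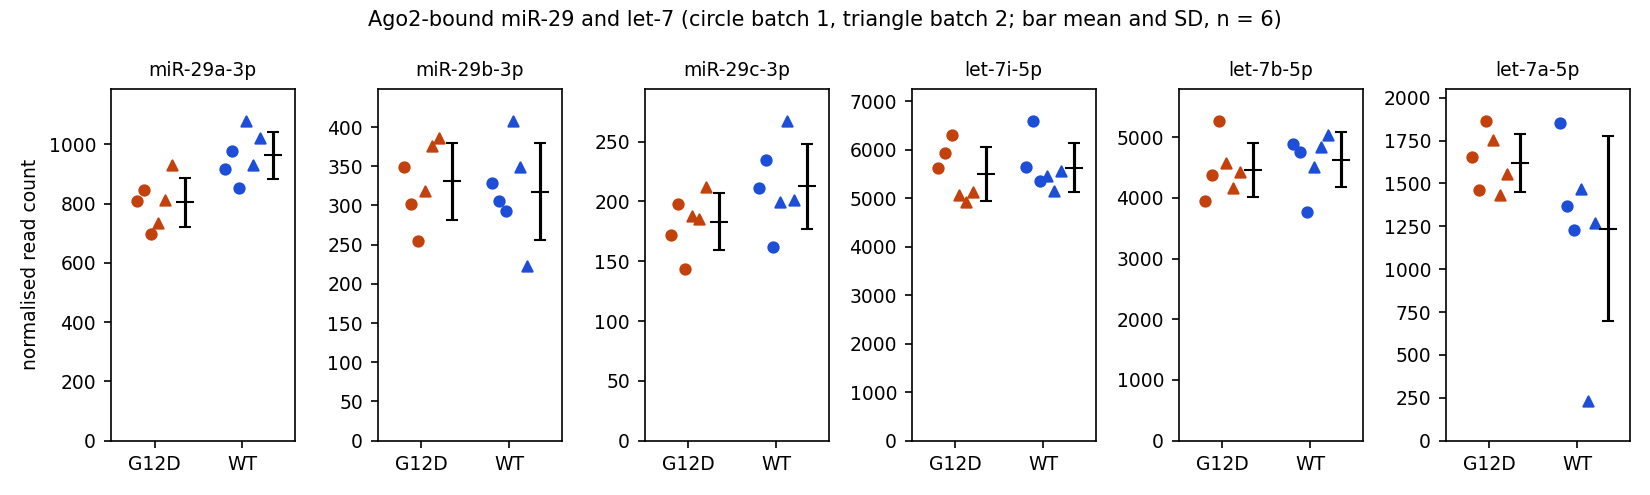
Ago2-bound miR-29a, b and c and let-7i, b and a in normalised read counts (vertical axes from 0) in G12D tumours (left, orange) and WT tumours (right, blue), with circles for batch 1, triangles for batch 2 and bars for the mean and SD of 6 tumours. For miR-29a-3p, 5 of 6 G12D tumours are below all WT tumours; WT replicate 5 is the low point of let-7a-5p.

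Peaks on other matrix genes are given for context, since the 10 genes were chosen with their peaks known. Of 23 other collagen genes, 1 had a peak, Col12a1, a collagen that decorates fibrils, with 57 ± 36.6 RPM in G12D and 59.6 ± 53.3 in WT tumours. Of 34 laminins, nidogens and other matrix proteins, 9 had a peak, and the one of highest mean lay in Agrn, a basement membrane proteoglycan (273 ± 95.1 in G12D and 331 ± 182 in WT tumours). Without WT replicates 5 and 6 the WT mean at the Agrn peak was 240 ± 113 RPM, below the G12D mean. Of 19 collagen folding and crosslinking enzymes, 2 had a peak, Plod2 and Plod3, which hydroxylate collagen lysines.

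Matrix receptors and proteases are made by epithelial cells as well. Of 20 matrix receptors, 10 had a peak, led by Itga6, a laminin-binding integrin (1929 ± 775 RPM in G12D and 1203 ± 617 in WT tumours). Of 23 proteases and inhibitors, 8 had one, led by the membrane protease Adam10 (766 ± 346 in G12D and 1301 ± 1205 in WT tumours). Without WT replicates 5 and 6 the WT mean at the Adam10 peak was 565 ± 297 RPM, below the G12D mean. No gene of these 5 lists passed the limma threshold between genotypes. Their median log2 fold changes relative to all genes were -0.31, -0.09, 0.07, 0.00 and -0.11 in the order collagens, matrix proteins, enzymes, receptors and proteases. Omitting WT replicates 5 and 6, they were -0.23, 0.26, -0.11, 0.21 and -0.16. The 10 genes had a relative median of 0.56 with all libraries and of 0.11 without these 2, below the matrix proteins and receptors. Sites for miR-29 lay in 0 of 1, 1 of 14 (Eln), 0 of 2, 4 of 46 (Itga3, Itga6 and Itgb1) and 0 of 16 of their peaks in the same order.

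Markers of the cells that could supply these mRNAs were sparse apart from epithelium. Of 20 fibroblast and smooth muscle markers, 3 had a peak, Postn (also among the matrix proteins), Mylk and Cald1, and their summed level was 87.7 to 321 RPM in G12D and 60.8 to 248 in WT tumours. This marker level was highest in G12D replicates 1 and 2 (321 and 292) and WT replicates 3 and 2 (248 and 208). These libraries had the 4 highest values of Col3a1 peak 2, and the same G12D tumours led Col4a1 peak 1 and Col5a2 peak 1. The Col1a1 sum did not follow this order. It was highest in WT replicate 4 and G12D replicates 5 and 6 (1224, 1040 and 946 RPM), where the marker level was 130, 141 and 181. In the libraries with the highest marker level, the Col1a1 sum was 871 and 332 RPM in G12D replicates 1 and 2. It was 311 and 362 RPM in WT replicates 3 and 2. The median log2 fold change of the fibroblast and smooth muscle markers relative to all genes was -0.19, and 0.44 without WT replicates 5 and 6. Pdgfra, Pdgfrb, Dcn, Lum, Vim, Acta2 and Myh11 had no peak. Of 12 endothelial markers 0 had a peak, and of 16 leukocyte markers 1 had one, H2-Eb1 (130 to 258 in G12D and 65.3 to 386 in WT tumours). Of 18 colon epithelium markers 14 had a peak, with summed levels of 18779 to 32719 in G12D and 7874 to 41312 in WT tumours. The lowest WT values were those of the shallow replicates 5 and 6 (7874 and 13588 RPM). WT replicates 1 to 3 (33447, 41144 and 41312 RPM) lay above every G12D tumour. A peak table lists Ago2-bound regions and not all expressed mRNAs, so a marker without a peak is not shown to be unexpressed, and the share of these cell types in the collagen signal was not tested.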

How the data were processed

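HEAP libraries of 12 tumours were grouped by the genotype, library type and batch of the labels. The submitters' processing notes list STAR (2.5.2b), DESeq2 and 2 names of one build (GRCm38, mm10) but no roles. Which program called the peaks is not stated in these sources. The deposited signal values are reads per peak or miRNA that the authors divided by one size factor per library. They were whole multiples of 1 read for 100% of values (tolerance 0.001), which gave the reads. The headers of the peak columns lack the library type, and the columns were read as mRNA libraries. The log2 fold changes and adjusted p-values of the authors' deposited tables are named where used. The score in the authors' peak lists, per the file headers without a unit, was not used.

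Peaks were chosen by annotated gene, and gene values are sums of peaks. Values in RPM in the text are recovered reads per 1000000 peak reads of a library. Tests used limma 3.58.1 (R 4.3.3) on log2(deposited value + 1) with batch as a covariate, for peaks and genes with a mean of at least 5 and miRNAs with a mean of at least 10, two-sided, with Benjamini-Hochberg adjustment over all features at 0.05. On this scale fold changes of low peaks can be understated, but where WT replicates 5 and 6 held 0 reads they came out larger than in the count models (Col1a2 peak 3 at 2.13, against 0.74 in DESeq2 and 0.18 in edgeR). edgeR 4.0.16 and DESeq2 1.42.0 on the recovered reads were alternatives, with another pseudocount, no filter, RPM scaling (log2(RPM + 10)), each batch alone, a replicate block and omitted libraries. The text names all 27 peaks' genes, the top peak of each other list, and the miR-29 and let-7 miRNAs.

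The members and lists were chosen with earlier results of these data known. Since the labels do not tie a number to a mouse, p-values describe the spread between the samples alone. Intervals cover only counting error, as reads may be copies of one molecule.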

Additional observations from a re-analysis of the deposited data

Results flagged for a closer look

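A sample standing apart from the other 5 of its genotype, by a gap that Dixon's test allows in about 1 of 20 groups, was looked for among 100 groups of the values above, and 15 were found (15%). Groups share libraries and peaks, so these are not independent. WT replicate 4 was the sample in 7 of them, as the highest WT tumour. It had 90.9, 149 and 486 RPM at Col1a1 peaks 2, 3 and 4, 139 at Col1a2 peak 2 and 271 at the Col5a1 peak, which is also the Col5a1 sum of 271, and its Col1a1 sum was 1224 RPM, against at most 403 in the other WT tumours. This library was also the deepest of the WT libraries.

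Among G12D tumours, replicate 1 stood apart at the exonic Col4a2 peak 1, with 126 RPM against 23.9 to 61.8 in the others. A further 3 WT values rest on few reads: Col5a2 peak 2 in replicate 2 (6.13 RPM, 1 read), Col5a2 peak 3 in replicate 6 (87.7 RPM, 5 reads) and Col6a3 peak 1 in replicate 5, with 0 reads. Among miRNAs, let-7d-5p was lowest in WT replicate 5 (116 normalised counts), let-7e-5p was highest in G12D replicate 1 (160), let-7f-5p in G12D replicate 3 (1954) and let-7i-5p in WT replicate 2 (6596).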

How the results depend on the processing

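With limma, 0 peaks and 0 genes were called between genotypes, and this held with no filter, on the RPM scale, in batch 1 alone and under the replicate block. Other settings moved the calls. A pseudocount of 5 called 513 peaks, of which 2 were collagen peaks (Col4a2 peak 2 and Col5a2 peak 3), and 381 genes, of which 2 (Col4a2 and Col5a2). DESeq2 called 787 peaks with 2 collagen peaks, 622 genes with 2 of the 10, and 27 miRNAs. edgeR called 12 peaks and 12 genes. Without WT replicates 5 and 6 it was 3 peaks and 47 genes, and in batch 2 alone 234 peaks with 1 collagen peak, 14 genes and 0 miRNAs. With limma 11 miRNAs were called, 1 in batch 1 alone and 6 under the replicate block, in which numbers do not pair the tumours (correlations of -0.52 to 0.31 over peaks and -0.36 to 0.30 over miRNAs, not above 0.1 for every number). Leaving out 1 library gave 0 to 3404 peaks, 0 to 19 of the 26, 0 to 2199 genes, 0 to 8 of the 10, and 5 to 16 miRNAs, the highest peak and gene counts being without WT replicate 4.

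Signs turned as follows. In edgeR, log2 fold changes were -0.18 for Col1a1 peak 5, -0.23 for Col1a2 peak 2, -0.16, -0.13 and -0.11 for Sparc peaks 1 to 3, -1.04 and -0.27 for Thbs1 peaks 1 and 2, -0.11 for Sparc and -0.69 for Thbs1 as sums. Without WT replicates 5 and 6 they were -0.13 for Col1a2 peak 2, -0.23 for Sparc peak 1, -0.56 and -0.14 for Thbs1 peaks 1 and 2, -0.25 for the Thbs1 sum, -0.075, -0.23 and -0.18 for let-7d, e and f, and -0.090 for miR-29b-3p. On the RPM scale they were -0.011 for Col3a1 peak 1, -0.48 for Thbs1 peak 1 and -0.28 for Thbs1. In DESeq2 they were -0.13 for Thbs1 peak 1, -0.38 for let-7e and -0.085 for let-7f. In batch 1 they were -0.39 for Thbs1 peak 1, 0.020 for let-7b, 0.024 for let-7c, 0.029 for let-7i, -0.10 for let-7d, -0.15 for let-7f and -0.043 for miR-29b-3p. With 1 library left out, ranges crossed 0 for Thbs1 peak 1 (-0.50 to 0.68), let-7c (-0.061 to 0.012), let-7d (-0.061 to 0.35), let-7e (-0.52 to 0.66), let-7f (-0.32 to 0.31) and miR-29b-3p (-0.057 to 0.14). The cause was not tested. The other fold changes of the peaks and genes kept their sign and stayed above the threshold p in 296 cases, and in 404 with 1 library left out, where 27 passed it, all without WT replicate 4. Depth limits every value of WT replicates 5 and 6.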
